A study of Homo sapiens with 6 samples.

Results

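The genes described here carry out cholesterol synthesis, cholesterol uptake and transport, and the sensing of sterols. They are 31 genes of the 26819 in the expression table, chosen by symbol from a list that names the SREBP machinery (4 genes), the mevalonate and isoprenoid steps (7), the squalene and sterol steps (11), uptake (2), intracellular transport and esterification (5) and efflux (2). The cells of both groups were Tet-O-YAP5SA C4-2, an LNCaP-derived human prostate cancer line that grows without androgen and carries a YAP1 transgene switched on by doxycycline. YAP5SA is a YAP1 that its inhibitory kinases cannot phosphorylate at their target serines. In the Dox group (3 libraries) doxycycline was present for 24 hours at a labelled 0.2 mg/ml, a unit that may be a slip for a lower one, and the Ctrl group (3 libraries) went without it. Both groups grew in RPMI-1640 with 10% fetal bovine serum, which supplies lipoprotein cholesterol. Nothing states whether the line is a clone or whether the libraries of a group came from separate cultures. The p-values therefore reflect only how much these libraries vary, which may be technical. Doxycycline-treated cells without the transgene are not among the samples, so effects of the drug and of the transgene cannot be told apart.

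Cells take cholesterol from lipoproteins or make it from acetyl-CoA through mevalonate, isoprenoids, squalene and lanosterol. The SREBP transcription factors switch on both routes. SCAP carries them from the endoplasmic reticulum to the Golgi for cleavage when membrane sterol is low, and INSIG proteins hold SCAP back when it is high. An excess of sterol is esterified by SOAT enzymes or, through oxysterols and the LXR receptors, exported by ABC transporters. Prostate cells are known for a high flow through this pathway, and androgens are made from its product.

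The label of the treatment was checked first. YAP1 had 263, 277 and 268 TPM in the Dox libraries and 52.7, 57.9 and 59.9 TPM in the Ctrl libraries (TPM is a length-corrected share of each library). Over the tested genes, 24914226 to 29207519 reads were recovered per Dox library and 27546897 to 28759617 per Ctrl library. The YAP1 reads come from the whole gene, transgene and endogenous copies together. CYR61, a YAP target, had 2640, 2606 and 2697 TPM in Dox and 11.8, 12.8 and 11.4 TPM in Ctrl. All 9 luminal markers of the line reached 1 TPM, with sums of 5501 to 5600 TPM in Dox and 6538 to 6636 TPM in Ctrl. Single luminal markers moved in both directions: KLK3 averaged 1795 ± 17.1 TPM in Dox and 3297 ± 69.6 TPM in Ctrl, and TMPRSS2 averaged 888 ± 31.1 TPM in Dox and 344 ± 25.7 TPM in Ctrl (SD, n = 3 each, as for all means here). Their part in the sterol results was not tested. Of 3 basal markers, KRT5 and TP63 had under 3 reads in every library, and KRT14 was at 1.44 ± 0.290 TPM in Dox and 1.48 ± 0.175 TPM in Ctrl. Of 5 fibroblast, endothelial and immune markers only VWF reached 1 TPM, and the list summed to 3.88 to 4.10 TPM in Dox and 1.34 to 1.77 TPM in Ctrl.

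Sterol genes moved in both directions, and the 4 most abundant ones fell. Of the 31 genes, 30 were expressed at 1 TPM or more in all 6 libraries and entered the test. In Dox, 12 of these 30 rose and 12 fell (limma on log2(TPM + 1), adjusted p under 0.05 over all genes), which is 40.0% in each direction. Over all 14833 genes tested, 35.9% rose and 17.8% fell, 53.7% in all. The median log2 fold change of the 30 genes was -0.08, against 0.10 over all genes tested. The libraries of the groups did not overlap for 25 of the 30, with 12 above and 13 below Ctrl, against 61.9% of all tested genes (40.8% above and 21.1% below). The 4 genes with the highest levels in Ctrl were INSIG1, FDFT1, MSMO1 and IDI1. Summed over the 31 genes, the level was 4406 ± 55.5 TPM in Dox and 6049 ± 94.9 TPM in Ctrl. That sum follows these 4 abundant genes, all of which fell, and does not describe the set as a whole. TPM values are shares of each library's RNA, so a gene's value also falls when others rise. Each library pools many cells, so fewer cells expressing a gene and less of its RNA per cell cannot be told apart.

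**Figure D1:**
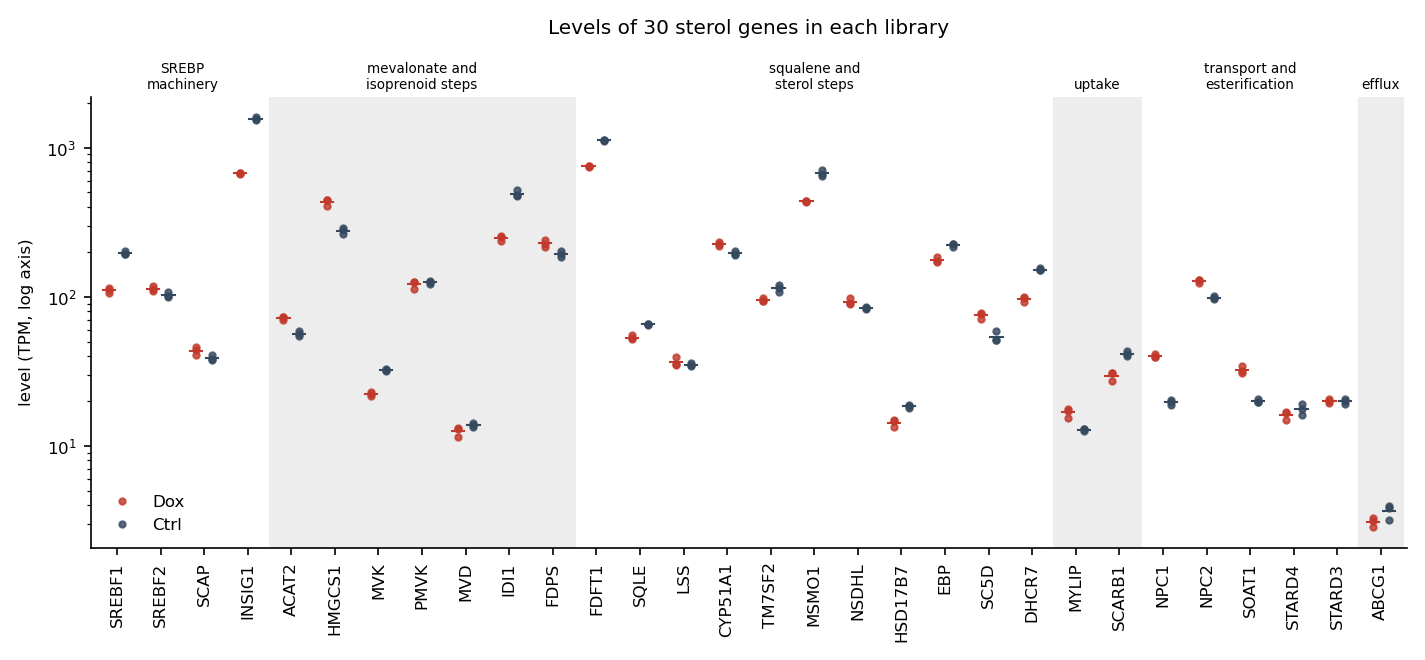
Level of each gene in TPM (log axis) in the 3 Dox libraries (red, left of each pair) and the 3 Ctrl libraries (dark, right), with a line at the mean. ABCA1, at 0 to 0.0491 TPM, is left out. INSIG1, IDI1, FDFT1 and MSMO1 lie lower in Dox, and HMGCS1, NPC1 and SOAT1 lie higher.

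How libraries are scaled moves the split. Over the 14833 genes, the median log2 fold change shifted by -0.10 under median-ratio rescaling and by -0.13 under quantile normalization. Under median-ratio rescaling 8 members were higher and 15 lower (26.7% and 26.6% of all genes), and under quantile normalization 9 were higher and 16 lower (23.8% and 29.3% of all genes). On whole reads recovered from the TPM values (limma voom), 11 were higher and 15 lower, against 35.1% and 22.3% of all genes, 57.4% in all. All 12 falls kept their call under each of the 14 alternative settings tried, as did 8 of the 12 rises. The other 4 rises, those of SREBF2, SCAP, FDPS and NSDHL, had log2 fold changes of at most 0.24 and are marked where they appear.

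**Figure D2:**
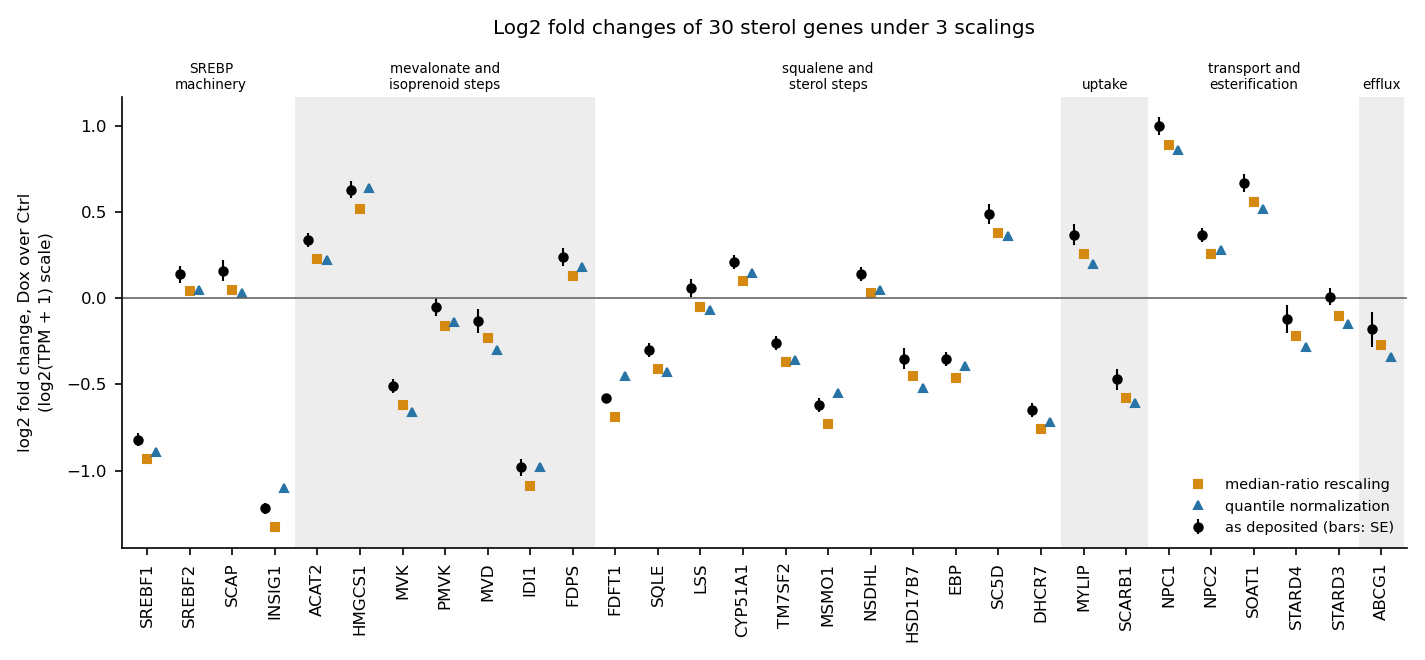
Log2 fold change, Dox over Ctrl, of 30 genes on the log2(TPM + 1) scale with the deposited values (black, bars show SE) and after median-ratio rescaling (orange) and quantile normalization (blue). The calls of SREBF2, SCAP and NSDHL are lost after either rescaling and that of FDPS after median-ratio rescaling, while INSIG1, IDI1, SREBF1, HMGCS1, SOAT1 and NPC1 keep theirs.

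Sequence upstream of the transcription start is shown for 4 genes: INSIG1, the member with the largest fall, MSMO1, an abundant sterol enzyme that fell, HMGCS1, the synthesis gene with the largest rise, and NPC1, the member with the largest rise. Each is the 250 bases before the start (RefSeq, GRCh38.p14), 5′ to 3′ on the gene's strand. INSIG1 lies at chr7:155297628-155297877 (+), MSMO1 at chr4:165327419-165327668 (+), HMGCS1 at chr5:43313413-43313662 (-) and NPC1 at chr18:23586507-23586756 (-). Capitals mark CCAAT on either strand, the box bound by NF-Y, a factor known to act beside SREBP, and TCACNTGA, an E-box form that SREBP can bind.
INSIG1: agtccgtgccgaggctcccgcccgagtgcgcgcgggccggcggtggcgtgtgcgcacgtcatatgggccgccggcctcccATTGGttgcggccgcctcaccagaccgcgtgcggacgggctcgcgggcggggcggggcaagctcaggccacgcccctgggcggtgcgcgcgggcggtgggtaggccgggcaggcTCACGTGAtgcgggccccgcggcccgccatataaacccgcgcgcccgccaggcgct
MSMO1: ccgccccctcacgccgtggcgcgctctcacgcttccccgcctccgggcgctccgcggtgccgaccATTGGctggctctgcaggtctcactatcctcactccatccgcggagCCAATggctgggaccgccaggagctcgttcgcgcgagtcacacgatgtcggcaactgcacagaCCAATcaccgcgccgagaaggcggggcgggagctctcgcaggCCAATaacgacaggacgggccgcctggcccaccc
HMGCS1: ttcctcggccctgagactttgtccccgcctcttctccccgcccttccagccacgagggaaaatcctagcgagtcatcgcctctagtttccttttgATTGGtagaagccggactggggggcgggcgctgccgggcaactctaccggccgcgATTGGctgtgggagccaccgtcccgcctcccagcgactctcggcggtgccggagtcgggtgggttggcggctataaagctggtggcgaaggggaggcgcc
NPC1: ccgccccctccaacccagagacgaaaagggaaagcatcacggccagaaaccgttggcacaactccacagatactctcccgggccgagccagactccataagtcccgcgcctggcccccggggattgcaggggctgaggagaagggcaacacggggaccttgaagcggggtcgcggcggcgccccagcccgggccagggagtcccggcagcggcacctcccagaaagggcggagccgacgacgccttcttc
The INSIG1 window held 1 CCAAT and 1 TCACNTGA, the MSMO1 window 4 CCAAT and the HMGCS1 window 2, and the NPC1 window had no match to either.

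Windows were matched by symbol for 26 of the 31 genes, taking the first listed start of each. ACAT2, FDFT1, SQLE, SCARB1 and ABCG1 had no match. A CCAAT on either strand was present in 18 of the 26 (69.2%), against 33.0% of the windows of all 27305 RefSeq genes, non-coding genes included. It was found on both sides of the split, in 8 of 11 genes that rose and 7 of 9 that fell. The GC box GGGCGG, which Sp1 binds, was in 25 of 26 (96.2%, against 42.3% of all genes). TCACNTGA was in INSIG1 and EBP, both of which fell (7.69% against 3.30%). The classical sterol element TCACNCCAC was in SREBF2 (3.85% against 0.875%), and the TEAD motif GGAATG in 5 of 26 (19.2% against 11.9%), of which 1 rose and 2 fell. Each motif was searched on both strands, no motif contains another, and a match describes the letters only. No share over expressed genes alone was computed, so these shares do not set the sterol genes apart from other expressed genes.

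In the SREBP machinery, INSIG1 and SREBF1 fell, and SREBF2 and SCAP rose by small amounts that depend on the scaling. INSIG1 (ENSG00000186480.8) encodes the membrane protein that retains SCAP and is itself switched on by SREBP. It had 661, 679 and 670 TPM in the Dox libraries, against 1556, 1529 and 1589 TPM in the Ctrl libraries. No library of either group came near the other. By limma this was a log2 fold change of -1.22 ± 0.03 (SE, as for all fold changes here) with an adjusted p = 5.1e-08, at rank 51 from the lowest among 14833 genes.

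SREBF1 (ENSG00000072310.12) encodes the SREBP known mainly for fatty acid genes. Its level was 106, 111 and 115 TPM in Dox and 192, 202 and 194 TPM in Ctrl, a log2 fold change of -0.82 ± 0.04 (adjusted p = 2.7e-06). The groups were far apart relative to their spread. SREBF1 shares 556 exon bases with RAI1 on the opposite strand, at 16.6 TPM in Dox and 12.9 TPM in Ctrl. SREBF2 (ENSG00000198911.7), the SREBP known mainly for cholesterol genes, had 109, 118 and 112 TPM in Dox and 98.8, 108 and 101 TPM in Ctrl (log2 fold change 0.14 ± 0.05, adjusted p = 0.028). SCAP (ENSG00000114650.14), the sterol-sensing escort, had 40.4, 46.0 and 44.2 TPM in Dox and 38.5, 40.4 and 37.8 TPM in Ctrl (0.16 ± 0.06, adjusted p = 0.045). The Dox and Ctrl values of both genes nearly touch, and neither call holds after median-ratio rescaling (adjusted p = 0.44 for SREBF2 and 0.45 for SCAP). Leaving out Ctrl 1, Ctrl 3, Dox 2 or Dox 3 also ended both calls, with adjusted p of 0.092, 0.088, 0.095 and 0.055 for SREBF2 and 0.11, 0.14, 0.15 and 0.11 for SCAP.

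Ratios between members of 1 library do not depend on a factor applied to that whole library, as in median-ratio rescaling, but quantile normalization can alter them and was not applied to them. The ratio of INSIG1 to SCAP was 16.4, 14.8 and 15.2 in Dox, against 40.4, 37.8 and 42.1 in Ctrl. The ratio of SREBF1 to SREBF2 was 0.968, 0.944 and 1.02 in Dox, against 1.94, 1.88 and 1.93 in Ctrl. Within the synthesis pathway, HMGCS1 over IDI1 was 1.77, 1.72 and 1.73 in Dox and 0.547, 0.594 and 0.560 in Ctrl. The groups did not overlap for any of the 3 ratios. This had to be so, because in each pair 1 gene was lower and the other higher in every Dox library. The exact two-sided permutation test therefore gave p = 0.10 for each, the smallest that 3 against 3 libraries allow. It adds no support to the results of the single genes.

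**Figure D3:**
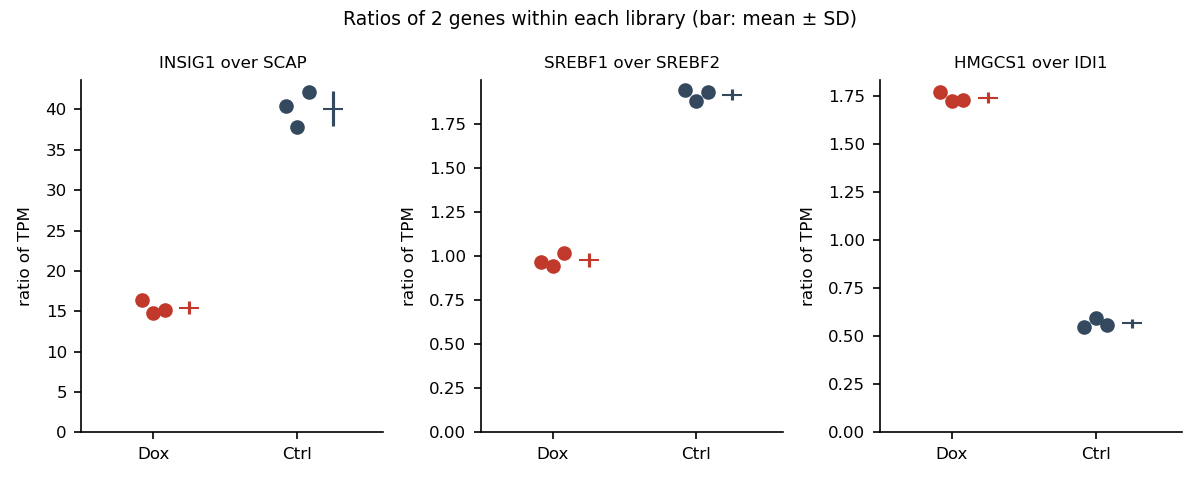
Ratio of TPM between 2 genes in each library, Dox (red, left) and Ctrl (dark, right), for INSIG1 over SCAP, SREBF1 over SREBF2 and HMGCS1 over IDI1. Points are libraries and the bar beside them is the mean ± SD. The first 2 ratios are lower in Dox (means 15.4 and 0.978, against 40.1 and 1.92) and the third is higher (1.74, against 0.567).

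Of the 7 mevalonate and isoprenoid steps, 3 rose and 2 fell (42.9% and 28.6%, against 35.9% and 17.8% of all genes), shares not far from those of all genes. Median-ratio rescaling gave 2 higher and 3 lower (28.6% and 42.9%, against 26.7% and 26.6% of all genes under that scaling). ACAT2 (ENSG00000120437.7), the thiolase of the opening step, had 73.0, 72.6 and 69.6 TPM in Dox and 58.6, 54.8 and 55.9 TPM in Ctrl. HMGCS1 (ENSG00000112972.10), cytosolic HMG-CoA synthase, had 442, 443 and 407 TPM in Dox and 263, 280 and 288 TPM in Ctrl. Both rose without overlap, by log2 fold changes of 0.34 ± 0.04 and 0.63 ± 0.05 (adjusted p = 2.7e-04 and 2.4e-05). In GENCODE 29, ACAT2 shares 397 exon bases with TCP1 on the opposite strand, which stood at 346 TPM in Dox and 425 TPM in Ctrl. On that strand it also shares 1141 with SOD2 and 1458 with SOD2-OT1, for which no level was matched. The kit marks strand but no source used here says whether the counting did, so the level of ACAT2 is uncertain, as are those of other members with such a partner.

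Past mevalonate the kinase and the isomerase fell. MVK (ENSG00000110921.7), mevalonate kinase, had 22.3, 21.7 and 23.1 TPM in Dox and 32.6, 32.3 and 31.9 TPM in Ctrl (log2 fold change -0.51 ± 0.04, adjusted p = 4.7e-05). IDI1 (ENSG00000067064.6), the isomerase that makes the reactive isoprenoid unit, had 250, 257 and 236 TPM in Dox and 481, 471 and 515 TPM in Ctrl (-0.98 ± 0.05, adjusted p = 1.9e-06). Every Dox library lay far below every Ctrl library in both genes. MVK shares 306 exon bases with MMAB, an opposite-strand gene at 29.6 TPM in Dox and 34.9 TPM in Ctrl.

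The decarboxylase and the second kinase did not pass the test, and FDPS rose. PMVK (phosphomevalonate kinase) averaged 121 ± 7.20 TPM in Dox and 125 ± 3.33 TPM in Ctrl, with a log2 fold change of -0.05 ± 0.05 and overlapping libraries. MVD (mevalonate diphosphate decarboxylase) averaged 12.5 ± 0.989 TPM in Dox and 13.8 ± 0.493 TPM in Ctrl (-0.13 ± 0.07). Its libraries did not overlap. MVD missed the threshold with the deposited values (adjusted p = 0.14). It was called lower after median-ratio rescaling (-0.23, adjusted p = 0.016), quantile normalization (-0.30, adjusted p = 0.005) and on recovered reads (-0.18, adjusted p = 0.032). FDPS (ENSG00000160752.10), farnesyl diphosphate synthase, rose to 240, 227 and 215 TPM in Dox, against 201, 192 and 184 TPM in Ctrl (0.24 ± 0.05, adjusted p = 0.0047), and lost the call after median-ratio rescaling (adjusted p = 0.084).

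Of the 11 squalene and sterol steps, 7 fell and 3 rose (63.6% and 27.3%, against 17.8% and 35.9% of all genes). The summed level of these 11 genes was 2062, 2056 and 2028 TPM in Dox, against 2723, 2695 and 2785 TPM in Ctrl. The 7 mevalonate and isoprenoid genes summed to 1152, 1160 and 1089 TPM in Dox and 1177, 1166 and 1215 TPM in Ctrl. The first sum was thus apart between groups by far more than its spread, whereas the second was close, at 1134 ± 39.0 TPM in Dox and 1186 ± 26.0 TPM in Ctrl. Such sums follow their most abundant genes. Most of the first was FDFT1 (747 TPM in Dox, 1120 TPM in Ctrl) and MSMO1 (437 TPM in Dox, 672 TPM in Ctrl). In the second, HMGCS1 rose (431 TPM in Dox, 277 TPM in Ctrl) while IDI1 fell (248 TPM in Dox, 489 TPM in Ctrl).

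**Figure D4:**
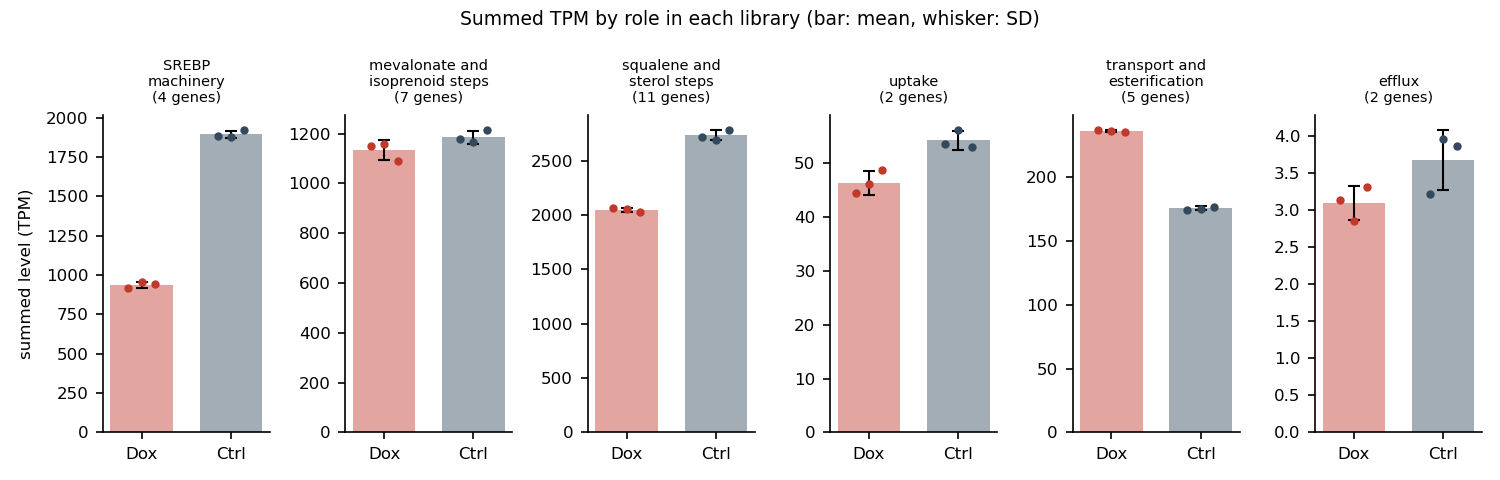
Summed TPM of the genes of each role in the 3 Dox libraries (red, left) and the 3 Ctrl libraries (dark, right). Bars show the mean, whiskers the SD and points the libraries, and each panel has its own axis from 0. The SREBP machinery sum (938 against 1895 TPM) is lower in Dox. Most of it is INSIG1 (670 against 1558 TPM), while SREBF2 and SCAP were higher before rescaling. The sum of the squalene and sterol steps (2049 against 2734 TPM), most of it FDFT1 and MSMO1, is also lower. That of transport and esterification (236 against 176 TPM) is higher.

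FDFT1 (ENSG00000079459.8), squalene synthase, commits the pathway to sterols. It had 755, 740 and 747 TPM in Dox and 1130, 1110 and 1120 TPM in Ctrl, a log2 fold change of -0.58 ± 0.02 (adjusted p = 1.1e-06). It took the place of INSIG1 as the most abundant of the 31 genes in Dox. SQLE (ENSG00000104549.7), squalene epoxidase, had 52.7, 51.8 and 55.0 TPM in Dox and 65.0, 66.0 and 65.7 TPM in Ctrl (-0.30 ± 0.04, adjusted p = 3.5e-04). Both genes were lower in all 3 Dox libraries. LSS, lanosterol synthase, was at 36.6 ± 2.25 TPM in Dox and 35.0 ± 1.03 TPM in Ctrl and did not pass (0.06 ± 0.05).

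The enzymes that remodel lanosterol were split. CYP51A1 (ENSG00000001630.11), lanosterol demethylase, had 226, 233 and 218 TPM in Dox and 191, 202 and 193 TPM in Ctrl (log2 fold change 0.21 ± 0.04, adjusted p = 0.0027). MSMO1 (ENSG00000052802.8), the methylsterol oxidase, had 440, 436 and 434 TPM in Dox and 662, 644 and 711 TPM in Ctrl (-0.62 ± 0.04, adjusted p = 9.7e-06). These enzymes of the demethylation sequence thus moved in opposite directions, each without overlap. NSDHL, the dehydrogenase that works with MSMO1, had 90.7, 98.0 and 89.7 TPM in Dox and 84.3, 82.5 and 85.3 TPM in Ctrl (0.14 ± 0.04, adjusted p = 0.024). Its call was lost without Ctrl 1 (adjusted p = 0.058), Ctrl 2 (0.066), Ctrl 3 (0.051) or Dox 2 (0.073), and after median-ratio rescaling (0.56). HSD17B7, the ketoreductase of the same complex, had 14.9, 13.4 and 14.6 TPM in Dox and 18.9, 17.9 and 18.6 TPM in Ctrl (-0.35 ± 0.06, adjusted p = 0.0013). It has a pseudogene copy, HSD17B7P2, listed at 1.96 TPM in Dox and 1.71 TPM in Ctrl, with which reads could be shared.

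Among the late reductases and isomerases, DHCR7 fell most. DHCR7 (ENSG00000172893.11), a reductase that yields cholesterol, had 92.3, 98.9 and 98.1 TPM in Dox and 151, 150 and 155 TPM in Ctrl (log2 fold change -0.65 ± 0.04, adjusted p = 5.5e-06). EBP, the sterol isomerase, had 184, 170 and 173 TPM in Dox and 227, 216 and 227 TPM in Ctrl (-0.35 ± 0.04, adjusted p = 2.4e-04). Both genes were lower in every Dox library. TM7SF2, a sterol reductase, averaged 94.9 ± 2.46 TPM in Dox and 114 ± 5.41 TPM in Ctrl (-0.26 ± 0.04, adjusted p = 0.0015). SC5D (ENSG00000109929.5), the desaturase just before DHCR7, moved the other way, with 78.3, 76.9 and 71.1 TPM in Dox and 51.1, 51.2 and 58.7 TPM in Ctrl (0.49 ± 0.06, adjusted p = 4.9e-04).

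Of the uptake genes, SCARB1 fell and MYLIP rose. SCARB1 (ENSG00000073060.11), the receptor that takes cholesteryl ester from HDL, had 27.1, 30.7 and 30.9 TPM in Dox and 41.0, 43.2 and 40.1 TPM in Ctrl (log2 fold change -0.47 ± 0.06, adjusted p = 3.9e-04). MYLIP (ENSG00000007944.10), a ubiquitin ligase that marks lipoprotein receptors for degradation and is a target of LXR, had 17.2, 15.4 and 17.8 TPM in Dox and 12.5, 13.0 and 12.9 TPM in Ctrl (0.37 ± 0.06, adjusted p = 0.0020). The libraries of the groups did not overlap in either gene.

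Of the 5 transport and esterification genes, 3 rose (35.9% of all genes did) and none passed as lower (17.8% of all genes did). Under median-ratio rescaling 3 were higher and 1 lower (26.7% and 26.6% of all genes were). Under quantile normalization 3 were higher and 2 lower (23.8% and 29.3% of all genes were). NPC1 (ENSG00000141458.8), the membrane protein that moves cholesterol out of the lysosome, had 39.3, 41.6 and 39.5 TPM in Dox and 19.6, 20.2 and 18.9 TPM in Ctrl (2.05-fold, SE 0.05 on the log2 scale, adjusted p = 2.0e-06). The soluble partner of NPC1, NPC2 (ENSG00000119655.4), had 130, 123 and 130 TPM in Dox and 98.1, 96.9 and 101 TPM in Ctrl (0.37 ± 0.04, adjusted p = 1.0e-04). SOAT1 (ENSG00000057252.8), which esterifies cholesterol at the endoplasmic reticulum, had 32.0, 34.4 and 30.8 TPM in Dox and 20.7, 19.6 and 19.8 TPM in Ctrl (0.67 ± 0.05, adjusted p = 3.7e-05). In all 3 genes every Dox library lay above every Ctrl library. NPC1 shares 604 exon bases with RMC1 on the opposite strand, at 45.3 TPM in Dox and 39.3 TPM in Ctrl, and NPC2 shares 103 with ISCA2 (45.6 TPM in Dox, 40.9 TPM in Ctrl).

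Among the members, the sterol transfer proteins STARD3 and STARD4 did not pass the test. STARD3, which tethers late endosomes to the endoplasmic reticulum, had 19.4, 20.6 and 20.1 TPM in Dox and 20.1, 20.7 and 19.0 TPM in Ctrl (log2 fold change 0.01 ± 0.05). STARD4, a soluble sterol carrier, averaged 16.1 ± 1.14 TPM in Dox and 17.6 ± 1.64 TPM in Ctrl (-0.12 ± 0.08). STARD4 was called lower after median-ratio rescaling (-0.22, adjusted p = 0.032), quantile normalization (-0.28, adjusted p = 0.015) and on recovered reads (-0.17, adjusted p = 0.04). STARD3 was called lower after quantile normalization (-0.15, adjusted p = 0.027).

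The efflux transporters ABCA1 and ABCG1 were low in these cells. ABCA1 (ENSG00000165029.11), which loads cholesterol onto apolipoproteins, had 0, 1 and 2 reads in the Dox libraries and 5, 1 and 3 reads in the Ctrl libraries. At this depth 3 reads correspond to 0.0295 to 0.0353 TPM for this gene, so a difference was not detectable. ABCG1 (ENSG00000160179.14), which passes cholesterol to HDL, had 3.14, 2.84 and 3.29 TPM in Dox and 3.17, 3.95 and 3.84 TPM in Ctrl, with a log2 fold change of -0.18 ± 0.10 (adjusted p = 0.16). The groups overlapped through Ctrl 1. ABCG1 was called lower after median-ratio rescaling (-0.27, adjusted p = 0.043), quantile normalization (-0.34, adjusted p = 0.016) and on recovered reads (-0.28, adjusted p = 0.037).

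Further genes of sterol metabolism were read from a list of 63, of which 53 could be tested. In Dox 21 of them rose and 16 fell (39.6% and 30.2%, against 35.9% and 17.8% of all genes), with a median log2 fold change of 0.03. Quantile normalization gave 14 higher and 22 lower (26.4% and 41.5%, against 23.8% and 29.3% of all genes under that scaling). The largest rises among the called genes were those of NUS1, ERLIN2, OSBPL9 and OSBP, and the largest falls those of NCEH1, TSPO, RABGGTB and LRP8.

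NUS1, a subunit of the enzyme that makes dolichol from isoprenoids, had 88.3, 86.3 and 74.2 TPM in Dox and 42.6, 41.7 and 41.0 TPM in Ctrl (log2 fold change 0.97 ± 0.07, adjusted p = 1.5e-05). ERLIN2, a membrane protein of sterol-regulated degradation, averaged 48.5 ± 1.80 TPM in Dox and 31.2 ± 1.80 TPM in Ctrl (0.62 ± 0.05). OSBP, which carries cholesterol to the Golgi, averaged 256 ± 7.37 TPM in Dox and 175 ± 6.56 TPM in Ctrl (0.55 ± 0.04), and its relative OSBPL9 averaged 14.5 ± 0.557 TPM in Dox and 9.17 ± 0.386 TPM in Ctrl (0.61 ± 0.06). All 4 were higher in every Dox library.

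NCEH1, a hydrolase of cholesteryl ester and so the counterpart of SOAT1, averaged 19.8 ± 0.379 TPM in Dox and 36.8 ± 1.31 TPM in Ctrl (log2 fold change -0.86 ± 0.05, adjusted p = 3.6e-06). The lipoprotein receptor gene LRP8 averaged 9.48 ± 0.226 TPM in Dox and 13.5 ± 0.380 TPM in Ctrl (-0.46 ± 0.05). TSPO, a mitochondrial outer membrane protein that binds cholesterol, averaged 154 ± 15.3 TPM in Dox and 217 ± 6.93 TPM in Ctrl (-0.50 ± 0.07). RABGGTB, a subunit of the enzyme that attaches isoprenoids to Rab proteins, averaged 56.2 ± 2.75 TPM in Dox and 79.8 ± 2.58 TPM in Ctrl (-0.50 ± 0.05). All 4 genes were lower in every Dox library.

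Regulators are given by their role. INSIG2, the paralog of INSIG1, fell to 77.8, 74.0 and 72.3 TPM in Dox, against 91.9, 85.2 and 92.8 TPM in Ctrl (log2 fold change -0.26 ± 0.05, adjusted p = 0.0021). The proteases that cleave SREBP rose slightly, MBTPS1 by 0.29 ± 0.06 and MBTPS2 by 0.26 ± 0.06 on the log2 scale, and both calls are lost after quantile normalization (adjusted p = 0.11 each). TMEM97, a sterol-regulated partner of NPC1, rose to 139 ± 5.27 TPM in Dox, against 99.5 ± 4.63 TPM in Ctrl (0.48 ± 0.05). Of the LXR genes, NR1H2 was at 62.6 ± 2.57 TPM in Dox and 58.4 ± 1.85 TPM in Ctrl and did not pass (adjusted p = 0.093, but 0.046 without Dox 1). NR1H3 was at 7.06 ± 0.200 TPM in Dox and 5.77 ± 0.367 TPM in Ctrl (adjusted p = 0.018, but 0.12 after median-ratio rescaling and 0.058 without Dox 1). Their RXR partners moved in opposite directions. RXRA fell to 21.9 ± 0.464 TPM in Dox, against 28.1 ± 1.07 TPM in Ctrl (-0.34 ± 0.05, adjusted p = 5.6e-04). RXRB rose to 30.1 ± 0.684 TPM in Dox, against 24.3 ± 0.750 TPM in Ctrl (0.30 ± 0.04, adjusted p = 8.6e-04).

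**Figure D5:**
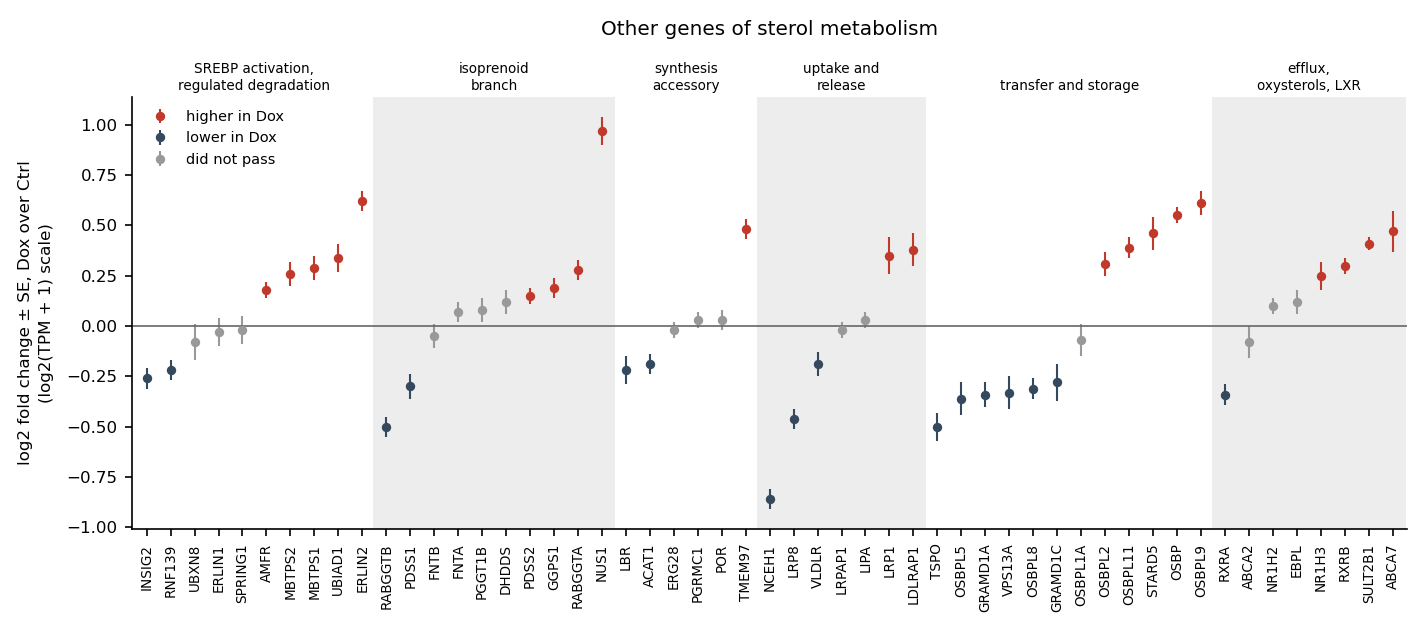
Log2 fold change ± SE, Dox over Ctrl, on the log2(TPM + 1) scale of 53 further sterol genes, ordered by size within each role and coloured by call. NUS1 is the highest at 0.97 and NCEH1 the lowest at -0.86, and each role holds genes on both sides of 0.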

How the data were processed

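Stranded mRNA libraries (TruSeq, per the labels' protocols) of 2 groups of 3 were analysed. Per the submitters' processing notes, FastQC 0.11.2, STAR 2.5.3a, featureCounts and edgeR were used with hg19. The authors deposited 1 TPM value per gene and library, per the file headers. No source used here names the annotation release or the strand setting. Since TPM is a share of a library, a gene's value falls when others rise.

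The test was limma 3.58.1 (R 4.3.3), run for the 14833 of 26819 genes that reached 1 TPM in 3 or more of the 6 libraries, on log2(TPM + 1) with a variance trend, two-sided, adjusted by Benjamini-Hochberg at 0.05, without a replicate block. The fit was also run on simulated data in which few genes changed, unlike here, so that run does not vouch for the calls. Fold changes on this scale understate low genes.

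Whole reads were recovered from the TPM values with GENCODE 29 exon lengths for 9115 tested genes and with the smallest length that gave whole reads for 5718 (tolerance 0.01 reads). If a gene's reads share a divisor, they are too low by it. The tested members had 144 to 52703 reads in a library. Floors of 3 reads cover counting error only. Libraries of a group differed beyond counting error (chi-square per gene 2.55 to 4.99), so none was merged.

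The members and lists were chosen with earlier results of these data known. All members are named, and of the 63 further genes the 4 largest changes per direction, besides 8 regulators named for their role after values were seen. The results were recomputed with a pseudocount of 0.1, no filter, a mean of at least 5 TPM, median-ratio and quantile scaling, no variance trend, a replicate block, leaving out each library and limma voom on recovered reads. Promoter windows are RefSeq's. The only coordinates printed are those of the windows, since the submitters' notes name hg19. Figures were drawn with matplotlib.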

Additional observations from a re-analysis of the deposited data

How the results depend on the processing

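The 12 falls remained 12 without each library in turn, and the rises ranged over 9 to 12. All genes called ranged over 6752 to 7589 without each library (4445 to 5278 higher, 2204 to 2417 lower), and further sterol genes called over 33 to 35. Quantile normalization gave 3536 genes higher and 4348 lower over all genes, against 5319 and 2640 with the deposited values. Of the members that did not pass, PMVK had 0.00 without Dox replicate 1. LSS turned to -0.05 under median-ratio and -0.07 under quantile scaling. STARD3 turned to -0.10 and -0.15 under the same 2 scalings and -0.03 on recovered reads, and ranged over -0.03 to 0.03 without each library (-0.03 without Ctrl replicate 3, -0.01 without Dox replicate 2). NR1H2 turned to -0.01 and -0.02 after the 2 rescalings. The cause was not tested. With the replicate number as a block, 7841 genes were called, among them 12 members higher and 12 lower. Deviations of same-numbered libraries correlated at -0.01, 0.06 and 0.00 over the tested genes, so no pairing was visible. A shared culture or day that acts on few genes would not show in these values, so pairing remains unknown. Ratios with ABCA1 could not be computed on the log scale, because it had no read in Dox 1. Depth limits statements on ABCA1 only among the members.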

Other observations

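Some further sterol genes stayed under the filter of 1 TPM and were not tested. SOAT2, the esterification enzyme of liver and intestine, had 15, 6 and 10 reads in the Dox libraries and 1, 1 and 0 reads in the Ctrl libraries. FAXDC2, a member of the fatty acid hydroxylase family, had 7, 7 and 17 reads in Dox and 42, 43 and 51 reads in Ctrl. ABCG4, a relative of ABCG1, had 38, 32 and 37 reads in Dox and 16, 15 and 19 reads in Ctrl. In each of the 3 genes the groups did not overlap, as was also the case for 61.9% of all genes tested. That share covers genes above the filter only, so it is not a background for these 3. GRAMD1B (lower in Dox) and CYP46A1 (higher in Dox) were also under the filter, and their TPM values did not overlap between groups either. The groups overlapped for CD36, STAR and CYP27A1, which were also under the filter. SOAT2, FAXDC2 and ABCG4 were chosen after their values were seen.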
